A study of Homo sapiens with 6 samples.

Results

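The tetraspanins examined here are 10 human genes: CD9, CD63, CD81, CD82, CD151, TSPAN3, TSPAN6, TSPAN8, TSPAN14 and TSPAN15. Each was found in the deposited RNA-seq count matrix by matching its symbol to 1 Ensembl gene identifier, and all 10 of 10 were present among 57905 genes. The cells were HCT116, a human colorectal carcinoma line that keeps wild-type p53. They were treated with 10 µM Nutlin-3a, a small molecule that keeps MDM2 from binding and degrading p53, for 1 h (Nut 1h) or 10 h (Nut 10h). Cells given only the solvent DMSO served as the vehicle control and are called Nut 0h. There were 2 biological replicates of each condition, all of this 1 cell line, and thus 6 libraries.

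Tetraspanins are small membrane proteins that cross the lipid bilayer several times and carry a pair of extracellular loops. They gather integrins, immunoglobulin-superfamily proteins, proteases and receptors into membrane microdomains, and several are abundant on endosomes and extracellular vesicles. In epithelial and carcinoma cells they are known for their part in adhesion, migration and ectodomain shedding, and CD82 (KAI1) is known as a metastasis suppressor.

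The libraries held between 26068076 and 35473485 counts assigned to genes, and the shallowest was Nut 1h replicate 2. Of the 57905 genes, 16565 passed the low-count filter and were tested, among them 9 of the 10 tetraspanins. MDM2, a p53 target, was higher after 1 h (log2 fold change 2.19) and 10 h (3.75), and CDKN1A, another p53 target, after 10 h (3.84). With a correction for transcript GC content, the values after 1 h were 1.44 for MDM2 and 0.58 for CDKN1A, which was called higher only with it (0.046 without). Epithelial markers were abundant, with counts in all libraries for 5 of 7 (EPCAM, KRT8, KRT18, KRT19 and CDH1, summed 96422 to 254227 per library), whereas the intestinal markers VIL1 and CDX1 had at most 10 and 2 counts. The leukocyte markers PTPRC and CD3E and the hepatocyte marker ALB had at most 2 counts in any library. The fibroblast markers summed to 625 to 1496 counts, nearly all from COL1A1 (621 to 1484), with COL1A2 at 0 to 25 and PDGFRB at 4 to 36. In these bulk libraries, fewer cells of a type and less RNA per cell cannot be told apart.

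Levels between genes were compared as normalized counts (counts scaled to the mean library size after TMM normalization) per kilobase of the canonical transcript. At Nut 0h the highest level was that of CD81, best known as a receptor for hepatitis C virus, at 8817 ± 969 per kilobase (SD, n = 2). CD151, which binds laminin-binding integrins, followed with 6744 ± 773, CD63, a marker of late endosomes and exosomes, with 3909 ± 129, and CD9, a surface and vesicle tetraspanin, with 3116 ± 77.9. A step below these were TSPAN14 (864 per kilobase), TSPAN3 (652), TSPAN15 (361), TSPAN6 (174) and CD82 (140). The replicates of neighbours in this order did not overlap at Nut 0h, but pairs of genes were not tested against each other.

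TSPAN8, described in colorectal carcinoma as the antigen CO-029, was the lowest member. Its raw counts were 12 and 1 in vehicle, 0 and 0 after 1 h, and 4 and 1 after 10 h. These counts lie mostly at or below a floor of 3 counts, which equals 3.01 and 3.78 normalized counts in the 2 Nut 1h libraries. TSPAN8 did not pass the low-count filter and was therefore not tested. Without that filter it was called lower at Nut 1h (edgeR, adjusted p = 0.0105), as it was when Nut 0h replicate 2, with 1 count, was left out. It was not called when either Nut 1h replicate was left out nor at Nut 10h under any of these settings. The call at Nut 1h thus changed with the filter and with the libraries kept. Leaving out a replicate left 1 library in its condition, so that the spread in those fits came only from the other conditions. Its gene (chr12:71518865-71835678, minus strand) overlaps LGR5 on the opposite strand without sharing exonic bases.

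The order of the other members changed with time. At Nut 1h, without a GC-content correction, CD63 (4943 per kilobase) stood beside CD81 (4803) with overlapping replicates, ahead of CD9 (3641) and CD151 (2923). At Nut 10h CD81, CD151, CD63 and CD9 were again the highest, and CD82 stood in the sixth place with 832 per kilobase, between TSPAN14 (1186) and TSPAN3 (487). The order also depends on which length is used: over the union of all annotated exons CD151 (2676 per kilobase) came first at Nut 0h, before CD63 (1651) and CD81 (1636), an alternative chosen after seeing the data.

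**Figure D1:**
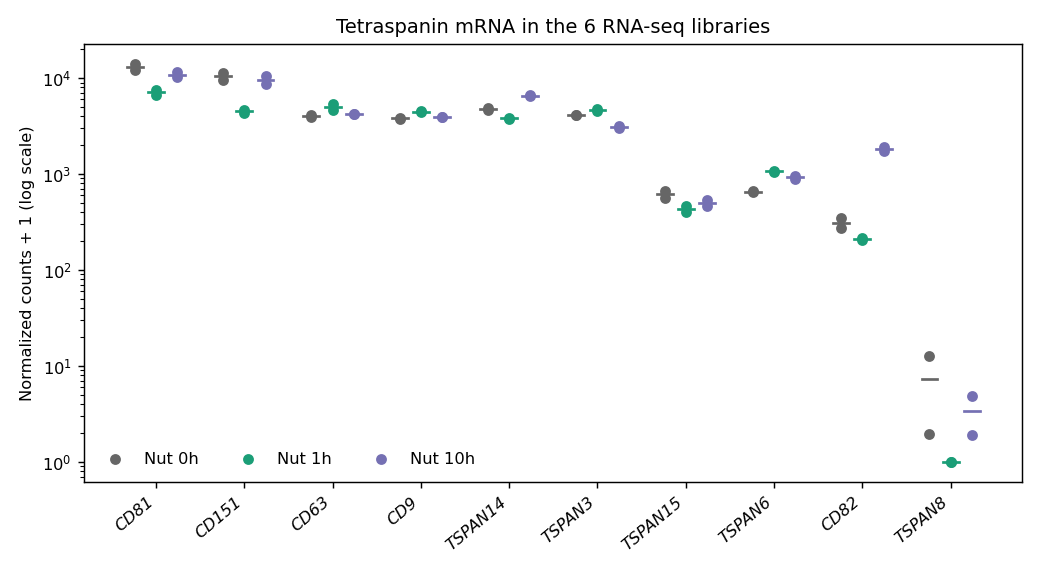
Normalized counts plus 1 on a log scale (vertical axis) of the 10 tetraspanin genes, each point 1 library and each bar the mean of the 2 replicates of a condition. CD82 lies between 205 and 344 in the Nut 0h and Nut 1h libraries and at 1760 and 1919 at Nut 10h, CD81 and CD151 dip at Nut 1h in these values without a GC-content correction, and TSPAN8 lies at or below 12 in every library.

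After 10 h of Nutlin-3a, CD82, TSPAN6 and TSPAN14 were higher than at Nut 0h and TSPAN3 was lower, whereas CD9, CD63, CD81, CD151 and TSPAN15 did not pass the test. Thus 3 of 9 tested members were called higher and 1 lower at an adjusted p of at most 0.05 (edgeR's quasi-likelihood test, Benjamini-Hochberg adjustment over all tested genes). Across all 16565 tested genes 29% were called, 14.1% higher and 14.9% lower. The median log2 fold change was 0.04 over the 9 members and 0.00017 over all tested genes. Only CD82 changed by more than 2-fold. The calls of these 4 genes were kept with the GC-content correction, an offset per library taken from a smooth trend of all genes over transcript GC content, which also called CD81 (-0.20) and TSPAN15 (-0.27) lower. With it 3 members were called higher and 3 lower, beside 39.6% of all tested genes, 18.9% higher and 20.7% lower.

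CD82 (ENSG00000085117, chr11:44585977-44641908 on the plus strand of GRCh37) rose the most. Its normalized counts were 344 and 276 in vehicle, 205 and 216 after 1 h, and 1919 and 1760 after 10 h. Both Nut 10h libraries lay far above all the others, and the Nut 1h libraries lay below both Nut 0h libraries, a difference that turned from -0.56 to 0.075 on the log2 scale with the GC-content correction. The log2 fold change at Nut 10h against Nut 0h was 2.57 ± 0.12 (SE), a 5.93-fold rise (edgeR, adjusted p = 4.1e-09). Only 0.616% of the tested genes had a higher log2 fold change in this comparison, which placed CD82 at rank 103 of 16565. With the GC-content correction the value was 2.60. An antisense gene, CD82-AS1, shares 6.93% of the exonic bases of CD82, and since the strand setting of the counting is not given in the sources used here, reads over those bases cannot be assigned to either gene.

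The sequence around the start of each member was searched for the p53 consensus, the 20-base pattern of a pair of adjacent 10-base repeats without a spacer, in a window of 2000 bases on each side of the canonical transcript start in GRCh37. Up to 2 mismatches were allowed outside the 4 core bases, the C and G of each repeat, at positions 4, 7, 14 and 17, and the pattern reads the same on both strands. Among the 10 members only CD82 held a match. It is shown because it sits near the member that rose the most, with the core bases in capitals.
CD82, chr11:44586311-44586330, plus strand: gggCcaGtccaggCaaGctg
The match begins 902 bases upstream of the canonical start, has 2 mismatches, and lies in an intron of 1 of the 14 annotated CD82 transcripts. Among 15839 tested genes with a full window, 480 (3.03%) held at least 1 match by the same rule. The match is a description of these letters, and no binding was measured here.

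TSPAN14 and TSPAN15 belong to the subgroup of tetraspanins that bind the protease ADAM10 and steer its traffic and choice of substrates. Normalized counts of TSPAN14 (ENSG00000108219, chr10:82214021-82292880) were 4873 and 4707 in vehicle, 3733 and 3883 after 1 h, and 6479 and 6676 after 10 h. The 3 conditions did not overlap, with Nut 1h lowest and Nut 10h highest. TSPAN14 rose 1.37-fold from Nut 0h to Nut 10h (log2 fold change 0.46 ± 0.09, SE; edgeR, adjusted p = 0.0014). TSPAN15 (ENSG00000099282, chr10:71211221-71267422) had 662 and 567 in vehicle, 401 and 466 after 1 h, and 539 and 459 after 10 h. Both its Nut 10h libraries lay below the Nut 0h libraries, but the log2 fold change of -0.30 ± 0.13 (SE) did not pass the test (edgeR, adjusted p = 0.089). It passed when Nut 0h replicate 2 (-0.41) or Nut 10h replicate 1 (-0.42) was left out, and with no low-count filter (-0.35). ADAM10 itself had a log2 fold change of 0.04 at Nut 10h (edgeR, adjusted p = 0.80).

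TSPAN6, linked to the restraint of antiviral RNA-sensor signalling, lies on the X chromosome (ENSG00000000003, chrX:99882105-99894988, minus strand). Its normalized counts were 644 and 664 in vehicle, 1083 and 1061 after 1 h, and 888 and 963 after 10 h. All treated libraries lay above both controls in these uncorrected values, with Nut 1h the highest, but the GC-content correction turned the log2 fold change at Nut 1h from 0.71 to -0.095 and that of Nut 10h against Nut 1h from -0.21 to 0.57. TSPAN6 rose 1.42-fold at Nut 10h (log2 fold change 0.50 ± 0.10, SE; edgeR, adjusted p = 0.0017).

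TSPAN3 (ENSG00000140391, chr15:77333745-77376326, minus strand) was the only member called lower at Nut 10h without the GC-content correction. Its normalized counts were 4170 and 4112 in vehicle, 4511 and 4782 after 1 h, and 3048 and 3142 after 10 h. The Nut 10h libraries lay below all the others. The log2 fold change from Nut 0h to Nut 10h was -0.42 ± 0.09 (SE; edgeR, adjusted p = 0.0027), and 15.2% of the tested genes had a lower value. Genes on the opposite strand share 3.14% of the exonic bases of TSPAN3 and 1.35% of those of TSPAN14, and none of those of TSPAN6 or TSPAN15.

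The promoters of the 4 members called at Nut 10h are shown for comparison, from 250 bases before to 50 bases from the canonical start, with GC boxes in capitals (GGGCGG on the printed strand or CCGCCC, its reverse complement, overlapping boxes included).
CD82, chr11:44586963-44587262, plus strand: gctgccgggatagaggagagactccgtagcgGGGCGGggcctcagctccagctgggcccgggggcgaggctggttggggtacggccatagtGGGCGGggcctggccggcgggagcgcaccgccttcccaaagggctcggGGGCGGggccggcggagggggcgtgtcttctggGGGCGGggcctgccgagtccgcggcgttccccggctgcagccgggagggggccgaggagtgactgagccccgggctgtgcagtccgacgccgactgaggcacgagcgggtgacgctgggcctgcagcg
TSPAN14, chr10:82213816-82214115, plus strand: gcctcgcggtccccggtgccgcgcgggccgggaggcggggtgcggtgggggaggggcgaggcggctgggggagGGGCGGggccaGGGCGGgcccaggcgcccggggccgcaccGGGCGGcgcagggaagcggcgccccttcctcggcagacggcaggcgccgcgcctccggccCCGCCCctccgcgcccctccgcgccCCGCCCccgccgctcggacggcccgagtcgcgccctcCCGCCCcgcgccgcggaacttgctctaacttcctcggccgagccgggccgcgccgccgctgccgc
TSPAN6, chrX:99891754-99892053, minus strand: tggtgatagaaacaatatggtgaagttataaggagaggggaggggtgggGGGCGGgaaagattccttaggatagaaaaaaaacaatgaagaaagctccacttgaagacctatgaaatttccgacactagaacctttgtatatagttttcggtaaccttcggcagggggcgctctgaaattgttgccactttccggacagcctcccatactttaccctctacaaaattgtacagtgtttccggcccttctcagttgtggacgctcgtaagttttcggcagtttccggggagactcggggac
TSPAN3, chr15:77363402-77363701, minus strand: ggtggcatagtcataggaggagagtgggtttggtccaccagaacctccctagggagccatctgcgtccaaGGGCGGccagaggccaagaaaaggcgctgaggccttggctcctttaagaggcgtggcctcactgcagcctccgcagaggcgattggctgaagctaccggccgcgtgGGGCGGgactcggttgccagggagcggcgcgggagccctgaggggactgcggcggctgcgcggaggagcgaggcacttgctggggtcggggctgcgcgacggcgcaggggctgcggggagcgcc
The windows of CD82 and TSPAN14 were rich in CpG dinucleotides, with 33 and 53 in 300 bases and a GC content of 76.7% and 85.7%. That of TSPAN3 held 26 at 69.7%, and that of TSPAN6 held 12 at 47.3%. GC boxes numbered 4 in CD82, 6 in TSPAN14, 1 in TSPAN6 and 2 in TSPAN3. Each of the 10 members had at least 1, as did 67.6% of the tested genes. The letters TATAAA, on either strand, were in none of the 10 windows and in 6.84% of those of the tested genes. Among the 3 members that rose, the promoters thus ranged from the most CpG-rich of the 10 (TSPAN14) to the next to lowest (TSPAN6), with only TSPAN8 lower at 1.

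The abundant members moved little at Nut 10h. CD9 (ENSG00000010278, chr12:6308881-6347437) had 3885 and 3750 normalized counts in vehicle and 3946 and 3894 after 10 h. Its log2 fold change was 0.04 ± 0.09 (SE), far from the threshold (edgeR, adjusted p = 0.78). CD63 (ENSG00000135404, chr12:56119107-56123491, minus strand) had 3906 and 4093 in vehicle and 4229 and 4229 after 10 h, and its log2 fold change was 0.08 ± 0.10 (SE; edgeR, adjusted p = 0.57). For both genes the Nut 10h libraries lay just above the controls, by less than the test could separate from the spread between replicates.

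CD151 (ENSG00000177697, chr11:832887-839831) had 11264 and 9576 in vehicle and 10499 and 8587 after 10 h, with overlapping groups and a log2 fold change of -0.13 ± 0.11 (SE; edgeR, adjusted p = 0.44). CD81 (ENSG00000110651, chr11:2397407-2419032) had 14082 and 12052 in vehicle and 11642 and 10178 after 10 h. Both Nut 10h libraries lay below the controls, but the log2 fold change of -0.26 ± 0.11 (SE) did not pass (edgeR, adjusted p = 0.086). It passed when Nut 0h replicate 2 (-0.37) or Nut 10h replicate 1 (-0.36) was left out, and with no low-count filter (-0.31). At Nut 0h and Nut 10h the replicates of CD151 and CD81 were spread more widely than those of CD9 and CD63, and replicate 1 of CD151 and CD81 was the higher. POLR2L on the opposite strand shares 6.6% of the exonic bases of CD151, and CD81-AS1 shares 0.376% of those of CD81.

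**Figure D2:**
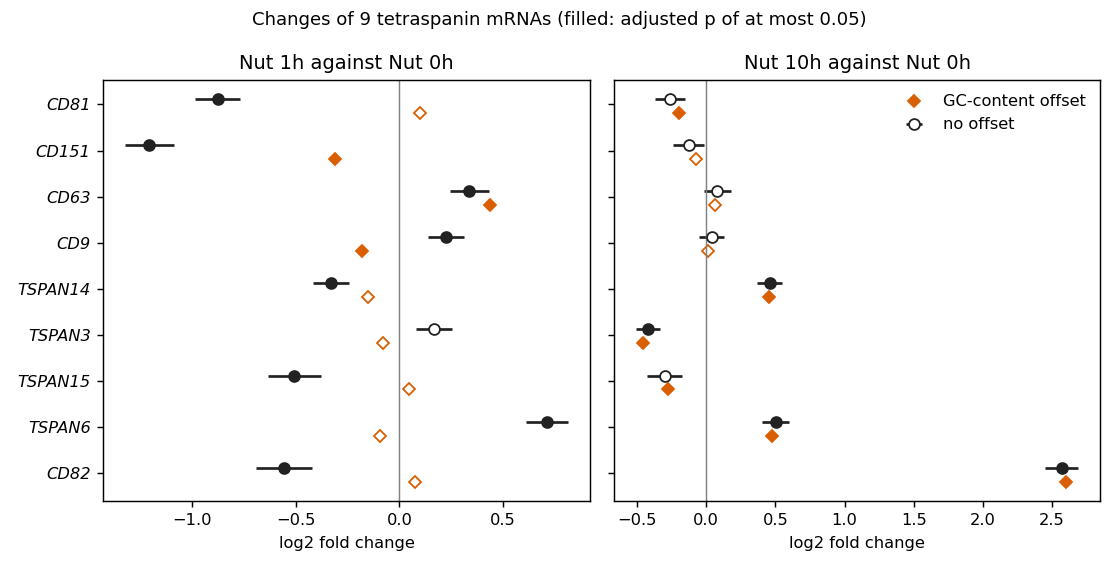
Log2 fold changes of the 9 tested tetraspanins at Nut 1h (left) and Nut 10h (right) against Nut 0h, with circles for edgeR without and diamonds for edgeR with the GC-content correction, bars for the SE of the former and filled symbols for an adjusted p of at most 0.05. At Nut 10h both symbols of CD82 lie near 2.6 and the corrected values stay close to the uncorrected ones, whereas at Nut 1h CD81 goes from -0.88 to 0.10 and TSPAN6 from 0.71 to -0.095.

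At 1 h more members passed the test, in both directions. CD9, CD63 and TSPAN6 were called higher than at Nut 0h, CD81, CD82, CD151, TSPAN14 and TSPAN15 were called lower, and TSPAN3 did not pass, but the sign turned with the GC-content correction for all of these except CD63, CD151 and TSPAN14. These 8 of 9 calls stand beside a background in which 66.9% of all tested genes were called, 34.5% higher and 32.3% lower. The median log2 fold change was -0.33 over the members and 0.05 over all genes, and with the GC-content correction it was -0.078 and -0.051. With the GC-content correction, 1 member was called higher (CD63) and 2 lower (CD9 and CD151), beside a background of 45.3%, 18.1% higher and 27.2% lower. Without Nut 1h replicate 1, 5 members were called, since CD9, TSPAN14 and TSPAN15 no longer passed.

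The direction at Nut 1h followed the GC content of the transcript across all genes. The median log2 fold change was 0.81 for the 2450 genes under 40% GC, 0.53 from 40% to 45%, 0.20 from 45% to 50%, -0.19 from 50% to 55%, -0.62 from 55% to 60%, and -1.12 for the 2673 genes of 60% or more. At Nut 10h the same medians lay between -0.08 and 0.04. The members lay along this trend at Nut 1h. TSPAN6, with the lowest GC content of the 9 (38.5%), had the highest value, and CD151 (61.5%) and CD81 (62.4%), with the highest, had the lowest values. CD63, at 52.0%, was the member that lay furthest above the median of its class.

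**Figure D3:**
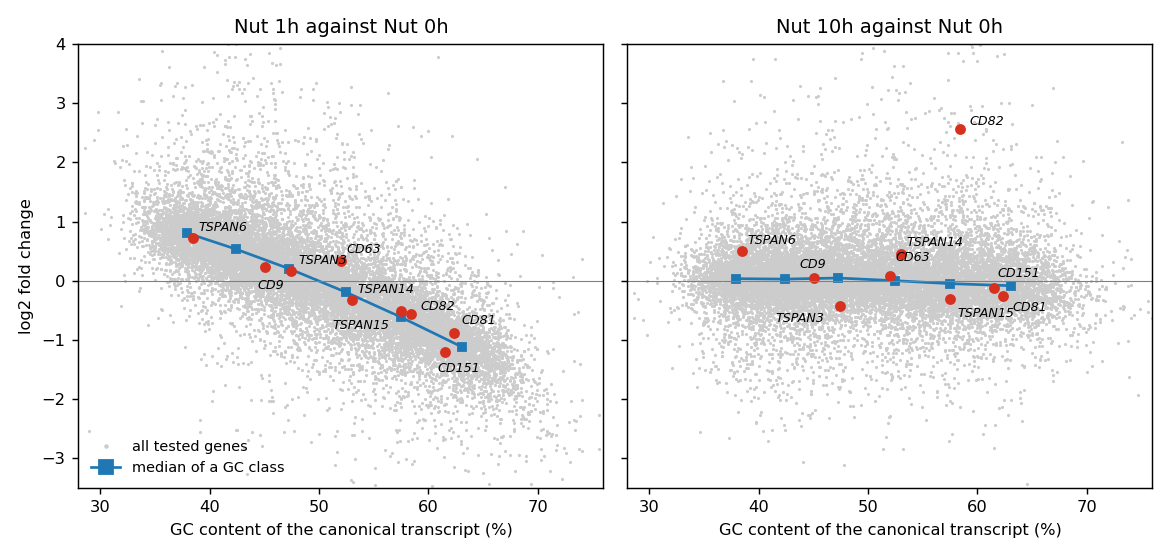
Log2 fold change against Nut 0h (vertical axis) by GC content of the canonical transcript in percent (horizontal axis) for all tested genes with a GC content (grey), the median of each GC class (blue squares, placed at the median GC content of the class) and the 9 tetraspanins (red). At Nut 1h the class medians fall from 0.81 to -1.12 and the tetraspanins lie near them, while at Nut 10h the medians are near 0 and CD82 lies above the other tetraspanins at 2.57, and 104 and 44 genes lie outside the plotted ranges.

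CD151 fell the most at Nut 1h, with normalized counts of 4341 and 4691 against 11264 and 9576 at Nut 0h. Its log2 fold change was -1.21 ± 0.12 (SE; edgeR, adjusted p = 1e-06), and -0.31 with the GC-content correction (adjusted p = 0.0011), so that it was called lower in both fits. CD81 had 6753 and 7482 against 14082 and 12052, a log2 fold change of -0.88 ± 0.11 (SE; edgeR, adjusted p = 8e-06) that became 0.10 with the correction (adjusted p = 0.23). Both genes were clearly below the controls in each Nut 1h library before the correction, and only CD151 was called lower after it. CD82 also lost its call, with -0.56 ± 0.14 (SE; edgeR, adjusted p = 0.0022) and 0.075 with the correction (adjusted p = 0.60). TSPAN15 went from -0.51 to 0.046, and TSPAN14 from -0.33 to -0.15 (adjusted p = 0.058), neither called with the correction.

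CD63 was higher at Nut 1h in both fits. Its normalized counts were 4691 and 5423 against 3906 and 4093 at Nut 0h, with no overlap, and replicate 2 was the higher. The log2 fold change was 0.34 ± 0.10 (SE; edgeR, adjusted p = 0.0065) and 0.44 with the correction (adjusted p = 9.3e-05). The uncorrected call was lost when Nut 0h replicate 1 (0.30) or Nut 1h replicate 2 (0.22) was left out. CD63-AS1 on the opposite strand shares 4.95% of its exonic bases.

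CD9 had 4394 and 4526 at Nut 1h against 3885 and 3750 at Nut 0h, a small separation without overlap. Its log2 fold change of 0.22 ± 0.09 (SE; edgeR, adjusted p = 0.035) turned to -0.18 with the correction (adjusted p = 0.036). The direction of CD9 at Nut 1h thus depended on the correction, and the uncorrected call was lost when any of the 4 libraries compared was left out. TSPAN6 went from 0.71 ± 0.10 (SE; edgeR, adjusted p = 2.4e-05) to -0.095 (adjusted p = 0.34). TSPAN3, at 0.17 ± 0.09 (SE) and -0.078, was called in neither fit.

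Between Nut 1h and Nut 10h, CD81, CD82, CD151 and TSPAN14 were called higher at Nut 10h and CD63 and TSPAN3 lower, of which only CD81 turned sign with the GC-content correction. These 6 of 9 members stand beside 67.9% of all tested genes called, 34.2% higher and 33.7% lower. CD82 again changed the most, by 3.13 ± 0.13 on the log2 scale (SE), an 8.74-fold difference (edgeR, adjusted p = 4.2e-10) that was 2.53 with the correction. TSPAN14 was higher by 0.79 (0.61 corrected) and TSPAN3 lower, with -0.59 (-0.38 corrected). CD81 went from 0.62 to -0.30 and CD151 from 1.08 to 0.23. With the correction all 9 members were called, 5 higher (CD9, CD82, CD151, TSPAN6 and TSPAN14) and 4 lower (CD63, CD81, TSPAN3 and TSPAN15), beside 58.2% of all genes. This comparison and that of Nut 1h against Nut 0h share the Nut 1h libraries.

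Genes with the most similar profiles were sought for CD9 and CD82 among the other tested genes, by the Euclidean distance between centred log2(normalized counts + 1) values over the 6 libraries (11575 genes compared, those with a mean of 100 or more normalized counts). For CD82 they were LOXL4 at a distance of 0.319, FDXR at 0.327 and ALOX5 at 0.353, against a median distance of 3.39. Their log2 fold changes at Nut 10h were 2.68, 2.31 and 2.87, beside 2.57 for CD82. LOXL4 had mean normalized counts of 37.2 in vehicle, 29.8 after 1 h and 238 after 10 h, and ALOX5 had 37.3, 26.9 and 273, so that both reached the mean of 100 only through the Nut 10h libraries. FDXR, the mitochondrial ferredoxin reductase, was the most abundant, with means of 3758 in vehicle, 2461 after 1 h and 18570 after 10 h. For CD9 the nearest genes were MRPL32, RAB38 and RDH10 at distances of 0.0305, 0.0338 and 0.0356, against a median of 0.82. These likenesses rest on 6 libraries and on values without the GC-content correction, which turned the sign of CD9 and CD82 at Nut 1h, and are given as a description.

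Of the 23 other human tetraspanin genes, 15 were tested, and at Nut 10h 3 were called higher and 2 lower, beside 14.1% higher and 14.9% lower over all tested genes. With the GC-content correction 5 were called higher and 3 lower, beside 18.9% and 20.7%, as TSPAN9 (0.21) and TSPAN10 (0.58) gained a call as higher and TSPAN4 (-0.20) as lower. TSPAN1, an epithelial tetraspanin, rose from 186 ± 13.1 to 388 ± 25.2 normalized counts (SD, n = 2), a log2 fold change of 1.06 (edgeR, adjusted p = 4.9e-05). It was the tetraspanin with the next largest rise after CD82. TSPAN31 (0.50) and TSPAN18 (0.42) were also called higher, and TSPAN13 (-0.35) and the low UPK1A were called lower. Genes on the opposite strand overlap TSPAN1 (P3R3URF and P3R3URF-PIK3R3), TSPAN31 (CDK4 and AGAP2) and TSPAN18 (TP53I11 and TSPAN18-AS1). The exonic bases shared with them were not counted, and reads over any shared bases cannot be assigned to either gene. At Nut 1h 3 of the 15 were called higher (TSPAN13, TSPAN31 and CD37) and 7 lower, beside 34.5% and 32.3% over all tested genes, and with the GC-content correction 2 were called higher and 4 lower, beside 18.1% and 27.2%. Different genes made up part of the corrected calls. CD37 (0.68, and 1.32 corrected) was called higher in both, and TSPAN33 (-1.03, and -0.44 corrected) and the low UPK1A were called lower in both. TSPAN17 was called lower without the correction (-0.35) and higher with it (0.30), while TSPAN5 (-0.30) and TSPAN12 (-0.56) were called lower only with it. TSPAN4 (-1.33), which lies next to CD151 on chromosome 11, TSPAN9 (-0.39), TSPAN10 (-0.94), TSPAN18 (-0.45), TSPAN13 (0.52) and TSPAN31 (0.35) were not called with the correction, which took them to -0.18, 0.20, 0.43, 0.057, -0.12 and 0.12 in turn.

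Proteins known to work with tetraspanins were followed as a list of 27 genes, of which 26 were tested. At Nut 10h 10 were called higher and 2 lower, beside 14.1% and 14.9% over all tested genes, and the median log2 fold change was 0.15 beside 0.00017 over all tested genes. With the GC-content correction the counts were also 10 and 2, beside 18.9% and 20.7%, and the median was 0.14 beside -0.0012. In the uncorrected fit, integrin subunits, laminin-binding and others, were called higher in 4 of 5 (the largest being ITGA3 0.89, ITGA2 0.48 and ITGB4 0.44), and ITGB1 was not called (0.11). Among the sheddases and their substrates 3 of 5 were called higher, the EGF-family ligand HBEGF, which binds CD9 (0.70), the receptor NOTCH1 (0.67) and the protease ADAM17 (0.33). Vesicle genes were called higher in 2 of 5, the syndecans SDC4 (1.08) and SDC1 (0.77). Of 8 tested membrane partners the lipid kinase PI4K2A was called higher (0.78) and EPCAM, a binding partner of CD9, lower (-0.32), and of 3 immunoglobulin-superfamily partners IGSF3 was called lower (-0.29). At Nut 1h 12 partners were called higher and 9 lower, beside 34.5% and 32.3% over all tested genes. With the correction these counts were 6 and 9, beside 18.1% and 27.2%.

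**Figure D4:**
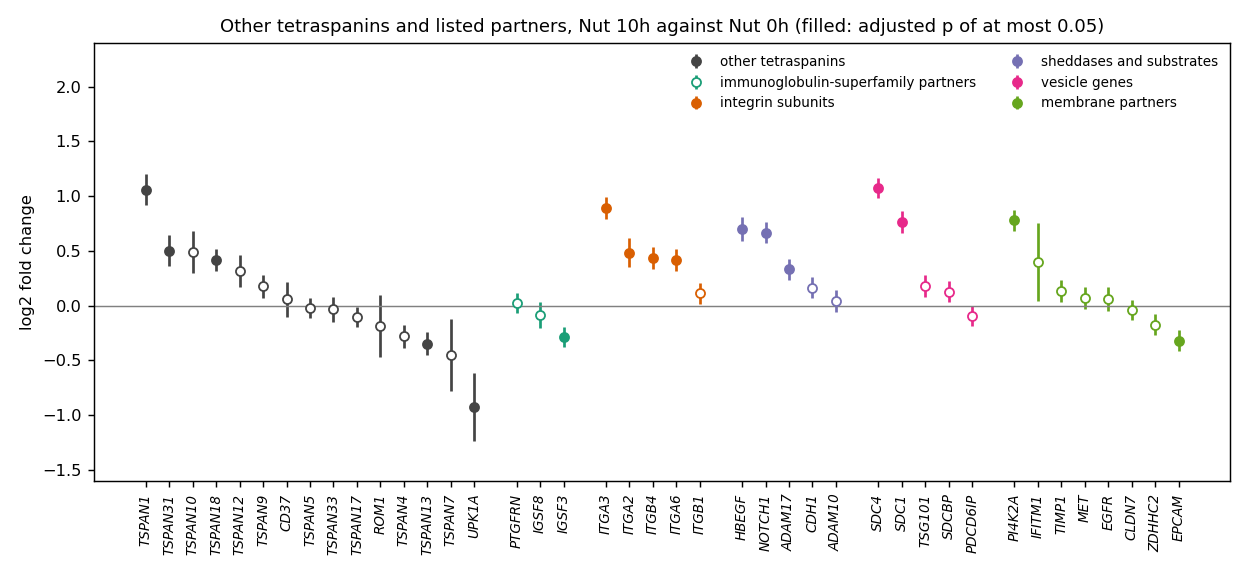
Log2 fold change at Nut 10h against Nut 0h (vertical axis) of the 15 other tested tetraspanins and the 26 tested partner genes by class, with the SE as bars and filled points for an adjusted p of at most 0.05. TSPAN1 is the highest tetraspanin at 1.06, and SDC4 (1.08) and ITGA3 (0.89) lead the partners.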

How the data were processed

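RNA-seq libraries of HCT116 cells (Nut 0h, Nut 1h and Nut 10h, 2 replicates each) were grouped by their labels. The authors used Trim Galore 0.6.6 for trimming, STAR 2.7.0f with GRCh37.p13 for alignment and featureCounts (Subread 2.0.0) for counting, and the deposited counts per gene are not normalized. The strand setting and the handling of multimapping reads are not given in the sources used here. The deposited table of the authors' own comparisons (fold changes with their errors and p-values) was used only for gene symbols. Totals ranged from 26068076 to 35473485, and the floor of 3 counts covers counting error only.

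Genes were filtered with filterByExpr, TMM-normalized and tested with edgeR 4.0.16 (quasi-likelihood test, limma 3.58.1, R 4.3.3) on all 6 libraries with the condition as the only term (3 residual degrees of freedom), and called at a Benjamini-Hochberg adjusted p of at most 0.05. The SE is the size of the log2 fold change over the square root of the F statistic. The GC-content correction is an offset per library from a loess trend (span 0.4) over the GC content of the canonical GENCODE transcript, known for 97.4% of tested genes. The scripts were tested on simulated data. Coordinates and sequences are from GRCh37 and GENCODE v44 lifted to it. Members and lists were chosen with earlier results of these data known. All members are named, other tetraspanins where called and at a mean of 100 or more normalized counts, and at most 3 called partners per class. UPK1A and TSPAN10 (means of 30.6 and 87.9) and ITGB1 and ADAM10, not called at Nut 10h, fall outside this rule and were named after their values were seen. Alternatives were other size factors, no filter, DESeq2 1.42.0, fewer libraries, a replicate block, the GC-content correction and each replicate left out. With a replicate left out, its condition kept 1 library, and the spread between replicates came only from the other conditions. PECAM1 was not analysed here, and 1 further marker is not reported here. Figures were drawn with matplotlib 3.10.9.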

Additional observations from a re-analysis of the deposited data

How the results depend on the processing

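At Nut 10h against Nut 0h the calls of CD82, TSPAN3, TSPAN6 and TSPAN14 and their directions were kept under all 11 settings tried for this comparison. Under the GC-content correction, 3 members were called at Nut 1h in place of 8, and the Nut 1h log2 fold changes turned for CD9 (-0.18), CD81 (0.10), CD82 (0.075), TSPAN3 (-0.078), TSPAN6 (-0.095) and TSPAN15 (0.046). Under it the Nut 10h against Nut 1h values turned for CD9 (0.19), CD81 (-0.30), TSPAN6 (0.57) and TSPAN15 (-0.32). The replicate block together with this correction gave 3 members and 7290 genes at Nut 1h, and the same turned values (CD9 -0.18, CD81 0.10, CD82 0.074, TSPAN3 -0.078, TSPAN6 -0.095 and TSPAN15 0.047 at Nut 1h, and CD9 0.19, CD81 -0.30, TSPAN6 0.57 and TSPAN15 -0.32 between Nut 10h and Nut 1h). The correction alone called 7508 and 6558 genes after 1 h and 10 h and 9640 between them, against 11077, 4810 and 11246 without it, and moved the Nut 1h calls from 34.5% higher and 32.3% lower to 18.1% and 27.2%. The cause was not tested. Leaving out each replicate in turn gave 5 to 8 members called after 1 h, 4 to 6 after 10 h and 5 to 6 between them. The Nut 10h value of CD151, never called, ranged from -0.28 to 0.026 with 1 replicate left out, and with no low-count filter that of CD9, also not called, was -0.0074. CD9 at Nut 1h also lost its call under RLE size factors, no low-count filter and DESeq2 (adjusted p 0.063, 0.19 and 0.081 in turn). CD63 between Nut 10h and Nut 1h lost its call without Nut 1h replicate 2 and without either Nut 10h replicate, and TSPAN15 gained one without Nut 10h replicate 2.

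Same-numbered replicates deviated together only for Nut 0h and Nut 10h (correlation of 0.446). The correlation was -0.309 for Nut 0h and Nut 1h and -0.279 for Nut 1h and Nut 10h. Each value only compares the replicate difference of a condition with that of another, so whether the numbers pair the samples is not known. The replicate block alone called 10979, 4893 and 11189 genes and changed no call of a member. TSPAN8, left out by the low-count filter, is among the members called at Nut 1h with no filter and without Nut 0h replicate 2 (8 called in each).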

Other observations

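The 9 tested members and TSPAN8 together took 0.124 ± 0.00516% of all counts in vehicle, 0.0969 ± 0.00322% after 1 h and 0.125 ± 0.00361% after 10 h (SD, n = 2). Within these counts CD81 and CD151 made up 57.8% and 54.3% in the vehicle libraries, 36.8% and 37.4% after 1 h, and 51.3% and 47.0% after 10 h. The summed share of these members at Nut 10h was thus near that of Nut 0h while its make-up differed, with CD82 and TSPAN14 higher. The Nut 1h shares are uncorrected for GC content, and the libraries of that time point also held the largest share of mitochondrial counts, 8.44% and 8.15% against 4.99% to 7.06% in the other 4.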
